A study of Homo sapiens with 8 samples.

Results

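The genes described here are 47 genes whose products license DNA replication origins, copy DNA, supply its nucleotides or work on newly copied DNA. They were listed by name from the known biology of S phase. No measured value enters the rule, but the list was drawn up with earlier results of these data known. All 47 were among the 18656 gene symbols of the authors' table of TPM (a share of all transcripts, corrected for gene length), and all 47 were among the 11894 genes that reached a deposited TPM of 1 in at least 2 libraries. RNA came from SW480, an established human colorectal cancer cell line, and 8 RNA-seq libraries were made after ribosomal RNA removal. Of these, 2 libraries came from cells given a negative-control siRNA and labelled 0 h. The other 6 came from cells given an siRNA against TCF7L2, a transcription factor of the Wnt pathway, with 2 libraries each at 24, 48 and 72 h. A lipid reagent delivered the siRNA.

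No control siRNA was labelled at a later time, so in comparisons with 0 h the siRNA and the hours in culture cannot be told apart. The 3 comparisons with 0 h share the same 2 control libraries. Nothing in the labels says whether replicates were separate cultures, and the p-values therefore rest on a spread between samples that may be technical. Fewer cells in S phase and less of each RNA per cell cannot be told apart in RNA from whole cultures.

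Levels below are scaled TPM: the deposited TPM divided by a library factor that puts the typical gene at the same level in every library. The factors ran from 0.989 to 1.07 in 7 libraries, and the factor was 0.801 in the second 72 h library, whose listed TPM summed to 352455.7 against 448107.5 to 485601.5 in the others. A change is a difference of log2(scaled TPM + 1) with its standard error (SE), and a gene was called when limma's two-sided adjusted p, over all 11894 genes, was under 0.05. TCF7L2, the targeted gene, stood at 6.46 and 6.98 scaled TPM at 0 h, 5.80 and 5.11 at 24 h, 4.68 and 3.83 at 48 h, then 3.95 and 4.41 at 72 h. Its transcript was thus below both control libraries at every later time, and the change at 72 h was -0.58 (SE 0.113, adjusted p = 0.00211). All 8 colorectal epithelial markers were at 1 or more in every library, and their summed level, carried mostly by KRT8, KRT18, KRT19 and EPCAM, was 3010 to 3060 at 0 h and 3930 to 4110 at 72 h. KRT8, KRT18, KRT19 and EPCAM were called higher at 72 h, as were CDH17 (1.44, adjusted p = 3.62e-06) and CDH1 (0.54, adjusted p = 0.00375). The intestinal transcription factor gene CDX2 was called lower at 72 h (-0.39, adjusted p = 0.00681), and the change of VIL1 was -0.01 (adjusted p = 0.856). The summed level of 10 markers of other cell types was 4.26 to 4.81 at 0 h and 8.73 to 12.9 at 72 h, with 2 or 3 of the 10 at 1 or more at 0 h and 4 or 5 at 72 h. Their part in the results was not tested.

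In each cell cycle, the origin recognition complex (ORC) with CDC6 and CDT1 loads the ring of MCM2 to MCM7 onto DNA in G1. CDC45 and the GINS complex then join the ring to make the active helicase, and polymerases alpha, delta and epsilon copy the opened strands with the sliding clamp PCNA and its loader RFC. Many genes of this machinery are known targets of E2F transcription factors, which the retinoblastoma protein holds back until late G1. In the colon these genes are active in dividing crypt cells, where Wnt signalling through TCF7L2 and its relatives maintains proliferation.

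The promoters are shown first because they carry the sequence elements by which these genes are usually grouped. RefSeq (GRCh38.p14) gave 58 promoter windows for 41 of the 47 genes, each from 250 bases before a start site to 50 after it. The genes with no entry were MCM4, MCM5, GINS4, POLD3, RPA2 and RPA3. E2F-type motifs were searched on both strands as TTTGGCGC, TTTCGCGC, TTTCCCGC and TTTGCCGC. They occurred in 23 of the 58 windows (39.7%), belonging to 22 genes, against 3.31% of all 35116 windows of the same length. Other replication genes had one in 12 of 49 windows (24.5%) and genes of G2 and mitosis in 4 of 39 (10.3%). In the stretches below, the capitals mark these motifs, and MCM6 is shown because its promoter held 4 matches.
MCM6: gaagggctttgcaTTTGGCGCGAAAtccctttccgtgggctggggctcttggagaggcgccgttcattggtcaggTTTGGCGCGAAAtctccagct
PCNA: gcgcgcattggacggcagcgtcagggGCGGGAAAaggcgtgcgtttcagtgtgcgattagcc
RFC3: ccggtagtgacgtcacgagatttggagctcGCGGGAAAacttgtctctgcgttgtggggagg
POLA1: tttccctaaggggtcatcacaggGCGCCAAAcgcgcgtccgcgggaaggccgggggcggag
POLE: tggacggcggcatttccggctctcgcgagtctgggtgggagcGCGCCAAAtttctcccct
MCM7: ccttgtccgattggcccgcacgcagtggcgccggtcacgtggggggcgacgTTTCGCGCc
The MCM6 stretch is chr2:135876513-135876608 on the minus strand. It holds the same run of capitals at both places, each run being 2 overlapping matches on opposite strands that begin 152 and 148, and 90 and 86, bases before the start. The PCNA stretch is chr20:5126646-5126707 (minus strand, match 59 bases before the start) and the RFC3 stretch is chr13:33818064-33818125 (plus strand, 55 bases before). The POLA1 stretch is chrX:24693758-24693818 (plus strand, match 137 bases before), that of POLE is chr12:132687343-132687402 (minus strand, 18 bases before) and that of MCM7 is chr7:100101398-100101457 (minus strand, 9 bases before). All of these stretches lie upstream of the annotated start.

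The CCAAT box (CCAAT, or ATTGG on the other strand) occurred in 31 of the 58 windows (53.4%), against 34.6% of all windows and 76.9% of those of G2 and mitosis genes. The next 3 stretches are shown for their repeated CCAAT boxes, in capitals.
RRM2: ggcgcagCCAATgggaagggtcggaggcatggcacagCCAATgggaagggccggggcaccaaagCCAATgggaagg
CDC45: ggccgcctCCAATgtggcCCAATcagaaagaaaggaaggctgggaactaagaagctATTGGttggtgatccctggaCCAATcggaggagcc
TK1: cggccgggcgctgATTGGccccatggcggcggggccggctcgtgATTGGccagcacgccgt
The RRM2 stretch is chr2:10122609-10122684 (plus strand) with 3 boxes, the CDC45 stretch is chr22:19479800-19479890 (plus strand) with 4, and the TK1 stretch is chr17:78187082-78187142 (minus strand) with 2. The motif TTTGAA of the cell cycle homology region (CHR, also read as TTCAAA), an element known from G2 and mitosis genes, occurred in 2 of the 58 windows (3.45%), those of DUT and RRM1. It occurred in 15.2% of all windows and in 23 of 39 windows (59.0%) of the G2 and mitosis genes. A match is a run of letters and not a measured binding site.

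Transcripts of the replication machinery were lower after the TCF7L2 siRNA, most of them at 72 h. At 24 h 2 of the 47 genes were called lower (4.26%), MCM7 and RRM2, while 0.429% of all genes tested were called lower and 0.614% higher. At 48 h 24 were lower (51.1%), against 11.2% of all genes lower and 12.2% higher. At 72 h 36 were lower (76.6%), against 25.5% of all genes lower and 26.5% higher. None of the 47 was called higher at any of the 3 times by limma. At an unadjusted p under 0.05 (limma), 24 of the 47 were lower and 0 higher at 24 h. The counts were 34 and 1 at 48 h, and 39 and 0 at 72 h. Over all 11894 genes 891 were lower and 1071 higher at 24 h at that threshold. Those counts were 2198 and 2226 at 48 h, and 3355 and 3549 at 72 h. The median change of the 47 genes was -0.18 at 24 h, -0.27 at 48 h and -0.39 at 72 h, beside -0.00, -0.01 and 0.01 over all genes tested.

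**Figure D1:**
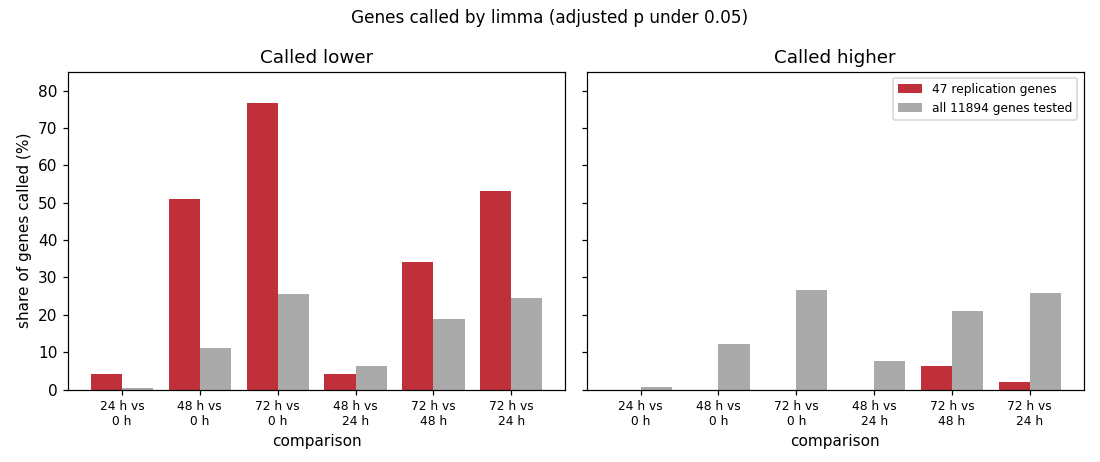
Share (%) of the 47 replication genes (red) and of all 11894 genes tested (grey) that limma called lower (left) or higher (right) at an adjusted p under 0.05, for each pair of times. Against 0 h the red bars for lower reach 4.26%, 51.1% and 76.6% and there is no red bar for higher, while between siRNA times 3 genes (48 to 72 h) and 1 gene (24 to 72 h) make small red bars for higher.

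The medians of replicate libraries stood close together, but single genes could differ more. In the 72 h libraries GINS2 stood at 10.6 and 6.68 scaled TPM, and MCM4 at 79.6 and 102. Taken against the mean of the 0 h libraries, the median of the 47 genes was -0.18 in both 24 h libraries, -0.26 in both 48 h libraries, and -0.38 and -0.43 in the 72 h libraries. Both later libraries lay below both 0 h libraries in 32 of the 47 genes at 24 h, 42 at 48 h and 42 at 72 h. The same held for 25.0%, 34.0% and 37.0% of all genes tested. At 72 h the 5 genes outside this pattern were MCM4, GINS4, POLE2, POLD3 and RPA2. The mean was highest at 0 h in 39 genes and lowest at 72 h in 32, and in 21 it was lower at each time than at the one before.

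**Figure D2:**
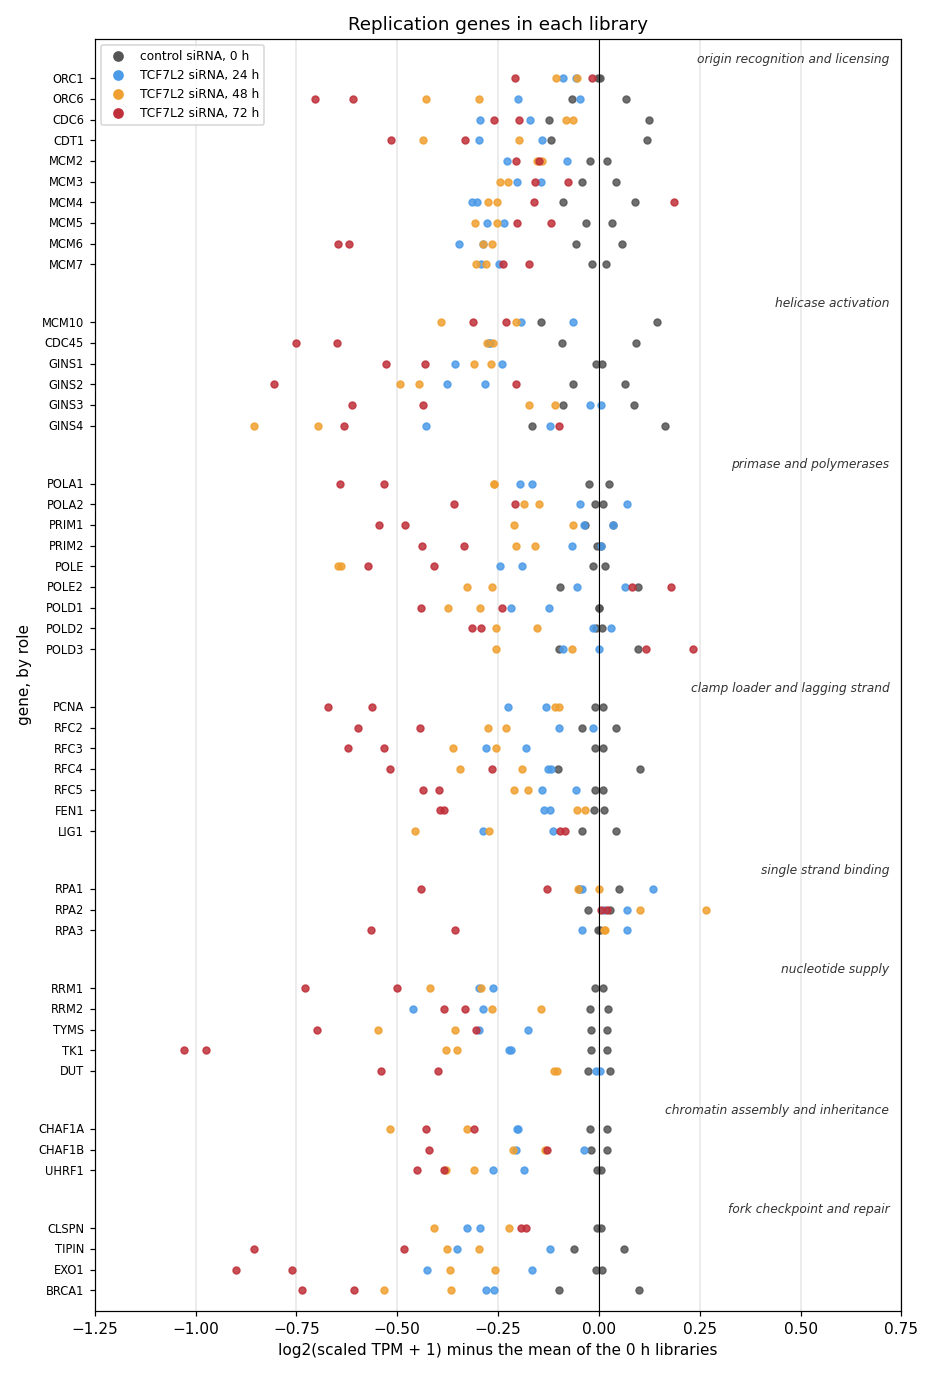
Each of the 47 genes is a line, grouped by role, and each point is 1 of the 8 libraries, placed by its log2(scaled TPM + 1) minus the mean of the 0 h libraries and coloured by group. The 72 h points lie farthest to the left for TK1, EXO1, CDC45 and BRCA1 among others, and for MCM4, POLE2, POLD3 and RPA2 at least 1 of them lies at or to the right of 0.

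The 72 h calls were the firmest. Of the 36, 29 were called again whichever of the 8 libraries was left out, and all 36 were called on the TPM as deposited, without scaling, where the median of all genes was -0.19. The other 7 calls (CDC6, CDT1, MCM2, MCM5, GINS2, RFC4 and RPA1) depended on single libraries. Those of CDC6, MCM2, MCM5, GINS2 and RPA1 were also lost under some other processing settings. On the TPM as deposited 31.2% of all genes were called lower at 72 h and 3.14% at 48 h. The median below 0 there at 72 h favours calls of lower. The 48 h calls were less firm. Their number was 12 without the first and 8 without the second 0 h library, 12 without the first and 9 without the second 48 h library, and 4 on the TPM as deposited. The 48 h calls of MCM7, POLE, TK1, CHAF1A and UHRF1 held whichever library was left out. Neither 24 h call held without any one of the 0, 24 and 48 h libraries. The most the adjusted p reached was 0.207 for MCM7 and 0.233 for RRM2.

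Of 10 origin recognition and licensing genes, 1 was called lower at 24 h, 5 at 48 h and 7 at 72 h, with median changes of -0.23, -0.27 and -0.19. ORC6, a subunit of the origin recognition complex, stood at 20.8 and 18.8 scaled TPM at 0 h, 17.1 and 19.1 at 24 h, 14.4 and 15.9 at 48 h, then 12.6 and 11.8 at 72 h. The 24 h and 0 h libraries overlapped, the later ones lay below, and the change at 72 h was -0.66 (SE 0.086, adjusted p = 0.000199). ORC1, the ATPase subunit that starts the assembly of the complex, was not called at any time (-0.11 at 72 h, SE 0.097, adjusted p = 0.357). CDT1, which brings the MCM ring to the origin, had a change of -0.42 at 72 h (SE 0.117, adjusted p = 0.0128, and 0.103 without the second 0 h library). CDC6, the loading ATPase, lay at the threshold at 72 h (-0.23, SE 0.086, adjusted p = 0.0497). Without the first 0 h library its change was -0.11 and its adjusted p 0.357.

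The 6 subunits of the MCM2 to MCM7 ring, which work together as 1 complex, were all lower at 24 and 48 h at an unadjusted p under 0.05, and 1 and 4 of them were called. Their changes ran from -0.32 to -0.15 at 24 h, from -0.29 to -0.15 at 48 h and from -0.63 to 0.01 at 72 h. Differences between subunits were not tested. MCM6 stood at 26.0 and 28.2 scaled TPM at 0 h, 22.0 and 21.1 at 24 h, 22.3 and 22.0 at 48 h, then 16.9 and 17.3 at 72 h. Its 24 h libraries lay below the controls, but that change was not called (-0.32, adjusted p = 0.0580). The change at 72 h was -0.63 (SE 0.065, adjusted p = 4.36e-05), and that from 48 to 72 h was -0.36 (adjusted p = 0.00241). MCM7, which had the highest level of the 47 genes at 0 h (226 ± 3.75 scaled TPM, SD, n = 2), stood at 229 and 224 at 0 h, 190 and 185 at 24 h, 186 and 183 at 48 h, then 201 and 192 at 72 h. All 6 siRNA libraries lay below both controls, with a change of -0.27 at 24 h (SE 0.044, adjusted p = 0.0278), -0.29 at 48 h and -0.21 at 72 h (adjusted p = 0.00335). It was the only one of the 47 genes called at all 3 times.

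The scaled TPM of MCM4 was 94.8 and 83.7 at 0 h, 72.1 and 71.4 at 24 h, 73.4 and 74.6 at 48 h, then 79.6 and 102 at 72 h. The 24 h and 48 h libraries lay below both controls, but no change was called (-0.31 at 24 h, SE 0.10, adjusted p = 0.163), and the 72 h libraries lay on either side of them (0.01 at 72 h, adjusted p = 0.922). This 72 h value rests on the second 72 h library: without it the change was -0.16, and on the TPM as deposited it was -0.21. The other 3 subunits had small changes at 72 h, of -0.18 for MCM2 (adjusted p = 0.0364), -0.12 for MCM3 (adjusted p = 0.103) and -0.16 for MCM5 (adjusted p = 0.0440). Leaving out the second 72 h library raised the adjusted p to 0.135 for MCM2 and 0.186 for MCM5.

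Genes that activate the helicase were mostly lower. Of 6, none was called at 24 h, 3 at 48 h and 4 at 72 h, and the median change was -0.27, -0.29 and -0.49. CDC45, a part of the active helicase, stood at 21.2 and 24.2 scaled TPM at 0 h, 18.6 and 18.6 at 24 h, 18.7 and 18.5 at 48 h, then 13.1 and 14.1 at 72 h. Its libraries were level from 24 to 48 h and lower at 72 h, where the change was -0.70 (SE 0.077, adjusted p = 6.98e-05). GINS1, a subunit of the GINS complex, stood at 12.9 and 13.1 at 0 h, 9.93 and 10.9 at 24 h, 10.6 and 10.3 at 48 h, then 9.39 and 8.71 at 72 h, with a change of -0.48 at 72 h (SE 0.079, adjusted p = 0.000794). Every siRNA library lay below both controls.

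Among the other GINS subunits, GINS2 stood at 12.4 scaled TPM at 0 h, near GINS1, and GINS3 and GINS4 at 5.85 and 6.26. GINS3 had a change of -0.52 at 72 h (SE 0.104, adjusted p = 0.00228) and GINS2 one of -0.51 (SE 0.160, adjusted p = 0.0243), which without the second 72 h library was -0.21 (adjusted p = 0.124). GINS4 stood at 7.09 and 5.43 scaled TPM at 0 h, 5.63 and 4.36 at 24 h, 3.45 and 2.98 at 48 h, then 3.65 and 5.73 at 72 h. It was called at 48 h (-0.78, SE 0.186, adjusted p = 0.0162, and 0.113 without the first 0 h library) and not at 72 h (-0.37, adjusted p = 0.127), where its libraries overlapped the controls. MCM10, which helps the helicase to start unwinding, stood at 10.4 and 13.0 at 0 h, 10.1 and 11.1 at 24 h, 8.64 and 9.97 at 48 h, then 9.19 and 9.79 at 72 h, and no change of it was called (-0.27 at 72 h, SE 0.112, adjusted p = 0.0672).

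Of 9 primase and polymerase genes, none was called at 24 h, 4 at 48 h and 7 at 72 h, with median changes of -0.03, -0.20 and -0.34. POLA1, the catalytic subunit of polymerase alpha, which starts each new strand, stood at 18.5 and 19.2 scaled TPM at 0 h, 16.3 and 16.7 at 24 h, 15.6 and 15.6 at 48 h, then 12.7 and 11.7 at 72 h. Each time lay below the one before, and the change at 72 h was -0.59 (SE 0.069, adjusted p = 9.91e-05). POLE, the catalytic subunit of the leading-strand polymerase epsilon, stood at 44.0 and 43.1 at 0 h, 38.0 and 36.6 at 24 h, 27.6 and 27.5 at 48 h, then 32.6 and 29 at 72 h. Unlike most of the genes it was lowest at 48 h, with a change of -0.64 (SE 0.065, adjusted p = 0.000257), a call that no other setting or left-out library ended, and -0.49 at 72 h (adjusted p = 0.000212).

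The accessory subunits POLE2 and POLD3 were not called against 0 h. POLE2, the second subunit of polymerase epsilon, stood at 6.07 and 7.08 scaled TPM at 0 h, 6.28 and 6.90 at 24 h, 5.03 and 5.29 at 48 h, then 7.01 and 7.55 at 72 h. Its 72 h and 0 h libraries overlapped (0.13, SE 0.099, adjusted p = 0.298). POLD3, an accessory subunit of the lagging-strand polymerase delta, stood at 14.6 and 16.9 at 0 h, 15.7 and 14.7 at 24 h, 13.0 and 14.9 at 48 h, then 18.6 and 17.1 at 72 h. Both 72 h libraries were above both controls, but the change was not called (0.18, SE 0.095, adjusted p = 0.150). The signs of these 2 values at 72 h turned on the TPM as deposited, to -0.07 for POLE2 and -0.04 for POLD3.

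The remaining 5 genes of this role were called lower at 72 h. The catalytic and the second subunit of polymerase delta, POLD1 and POLD2, had changes of -0.34 (adjusted p = 0.00329) and -0.30 (adjusted p = 0.000617). The primase subunits that make the RNA primers, PRIM1 and PRIM2, had changes of -0.51 (adjusted p = 0.000287) and -0.39 (adjusted p = 0.00334), and POLA2, the second subunit of polymerase alpha, one of -0.28 (adjusted p = 0.00712). PRIM2 has a near-identical copy in the genome, so its estimate is uncertain.

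Clamp, clamp loader and lagging-strand genes were mostly lower at 72 h. Of 7, none was called at 24 h, 4 at 48 h and 6 at 72 h, with median changes of -0.13, -0.25 and -0.42. PCNA, the sliding clamp that holds polymerases on DNA, stood at 143 and 141 scaled TPM at 0 h, 121 and 130 at 24 h, 132 and 132 at 48 h, then 95.9 and 88.8 at 72 h. The 48 h libraries lay above those of 24 h, and the 72 h libraries lay far below all others, with a change of -0.62 (SE 0.053, adjusted p = 1.43e-05). FEN1, the nuclease that trims the flaps of Okazaki fragments, stood at 48.4 and 47.5 at 0 h, 44.0 and 43.5 at 24 h, 46.8 and 46.1 at 48 h, then 36.2 and 36.5 at 72 h. It had the same order of times as PCNA, with a change of -0.39 at 72 h (SE 0.049, adjusted p = 0.000157).

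LIG1, the ligase that seals Okazaki fragments, went the other way after 48 h. It stood at 38.1 and 40.5 scaled TPM at 0 h, 36.2 and 32.0 at 24 h, 32.3 and 28.3 at 48 h, then 37.0 and 36.6 at 72 h. The 48 h change was -0.36 (SE 0.080, adjusted p = 0.0109, and 0.0749 without the second 0 h library), and the 72 h change was -0.09 (adjusted p = 0.366). The 4 subunits of the clamp loader in the set were all called lower at 72 h, with changes of -0.52 for RFC2, -0.58 for RFC3, -0.39 for RFC4 and -0.42 for RFC5. The adjusted p-values were 0.000166, 0.000184, 0.00752 and 0.000283 in that order, and that of RFC4 was 0.0667 without the second 0 h library.

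The 3 subunits of RPA, the protein that coats single-stranded DNA, were all lower at 72 than at 48 h at an unadjusted p under 0.05, and RPA3 alone was called in that step (-0.48, adjusted p = 0.000979, beside -0.26 for RPA1 and -0.17 for RPA2). Differences between the subunits were not tested. Their median change against 0 h was 0.04 at 24 h, 0.01 at 48 h and -0.29 at 72 h, and none was called before 72 h. RPA3, the small subunit, stood at 46.1 and 46.3 scaled TPM at 0 h, 44.9 and 48.5 at 24 h, 46.8 and 46.7 at 48 h, then 35.9 and 31.0 at 72 h. It was level until 48 h and then fell, with a change of -0.46 at 72 h (SE 0.073, adjusted p = 0.000592). RPA2, the middle subunit, stood at 28.7 and 29.9 at 0 h, 30.8 and 29.5 at 24 h, 31.5 and 35.4 at 48 h, then 29.7 and 29.4 at 72 h. Its 72 h libraries lay between the controls (0.01, SE 0.067, adjusted p = 0.890), and on the TPM as deposited its change was -0.21. RPA1, the large subunit, stood at 19.0 and 20.4 at 0 h, 19.1 and 21.7 at 24 h, 19.8 and 19.0 at 48 h, then 17.9 and 14.3 at 72 h. Its 72 h call (-0.29, SE 0.105, adjusted p = 0.0440) rests on the second 72 h library, without which the change was -0.13 (adjusted p = 0.291).

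Nucleotide supply held the largest fall of the 47 genes at 72 h. Of 5 genes, 1 was called lower at 24 h, 3 at 48 h and 5 at 72 h, with median changes of -0.24, -0.36 and -0.50. TK1, the cytosolic thymidine kinase, stood at 31.9 and 32.8 scaled TPM at 0 h, 27.7 and 27.6 at 24 h, 24.7 and 25.1 at 48 h, then 15.3 and 16.0 at 72 h. Every time lay below the one before, with a change of -0.37 at 48 h (SE 0.058, adjusted p = 0.00242) and -1.0 at 72 h (adjusted p = 1.24e-06). DUT, which breaks down dUTP and so keeps uracil out of DNA, stood at 67.4 and 70.1 at 0 h, 68.4 and 68.9 at 24 h, 63.6 and 63.9 at 48 h, then 51.9 and 47 at 72 h. Its 24 h libraries lay between the controls, and it was called at 72 h (-0.47, SE 0.057, adjusted p = 0.000125).

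RRM2, the small subunit of ribonucleotide reductase, stood at 57.7 and 55.8 scaled TPM at 0 h, 40.9 and 46.3 at 24 h, 51.3 and 47.1 at 48 h, then 43.3 and 44.9 at 72 h. It was down at 24 h (-0.37, SE 0.070, adjusted p = 0.0432, 0.233 with 1 library left out), was not called at 48 h (-0.20, adjusted p = 0.0628) and was lower again at 72 h (-0.36, adjusted p = 0.00212). RRM1, the large subunit, had a change of -0.61 at 72 h (SE 0.075, adjusted p = 0.000129). TYMS, the thymidylate synthase, had one of -0.50 (SE 0.119, adjusted p = 0.00609). Exons of TYMS overlap those of ENOSF1 on the other strand.

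**Figure D3:**
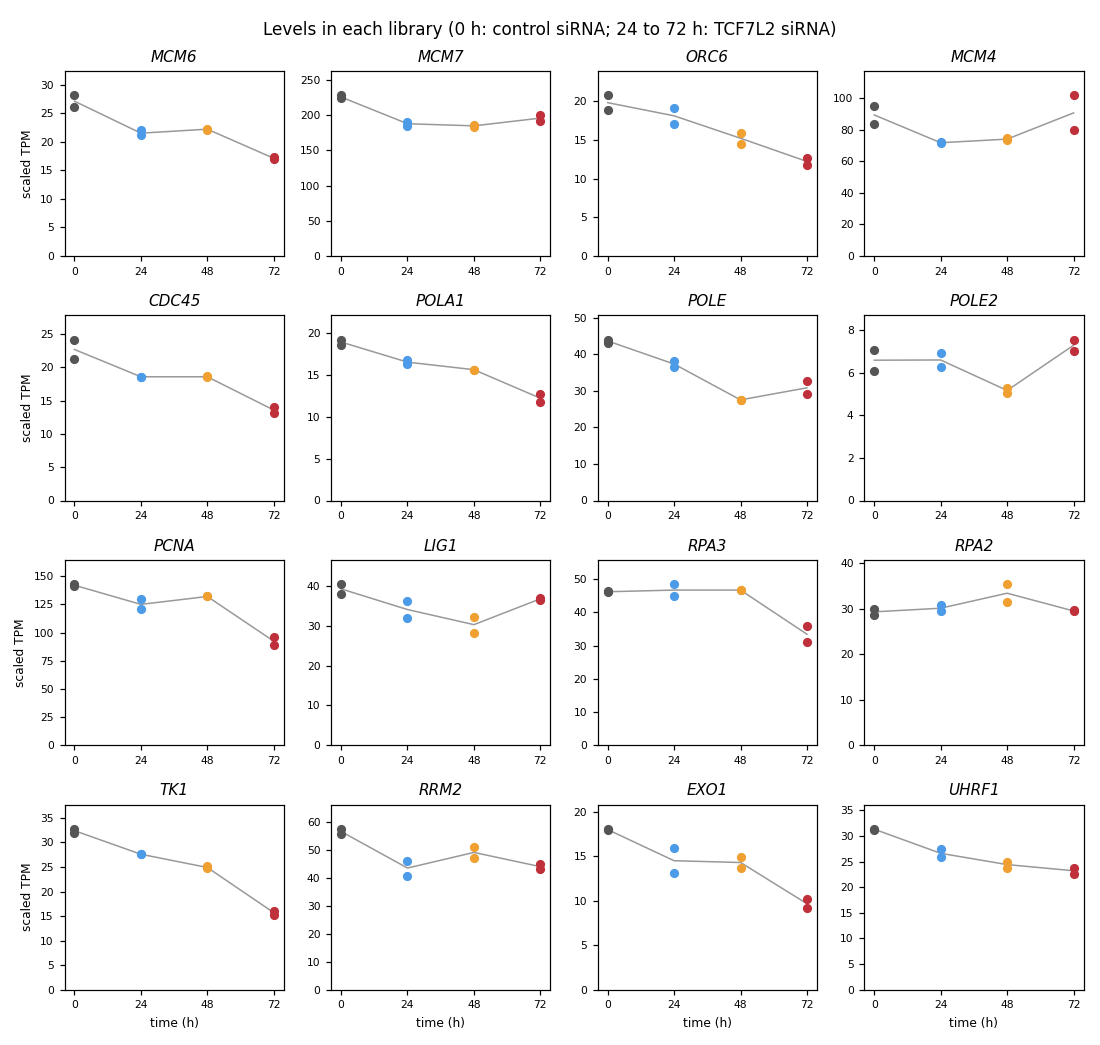
Scaled TPM of 16 replication genes in each library (points) against time in hours, with control siRNA at 0 h and TCF7L2 siRNA later, and lines through the means of the 2 libraries of each group. TK1 falls at each time to 15.3 and 16.0 at 72 h, PCNA falls after 48 h to 95.9 and 88.8, and POLE is lowest at 48 h.

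Of the 3 chromatin genes, none was called at 24 h and 2 each at 48 and 72 h, with median changes of -0.20, -0.34 and -0.37. UHRF1, which guides DNA methylation onto new strands, stood at 31.2 and 31.4 scaled TPM at 0 h, 27.4 and 25.9 at 24 h, 25 and 23.8 at 48 h, then 23.7 and 22.6 at 72 h. Its change was -0.34 at 48 h (SE 0.061, adjusted p = 0.00423) and -0.42 at 72 h (adjusted p = 0.000391). CHAF1A, the large subunit of the histone chaperone CAF-1, stood at 24.0 and 23.2 at 0 h, 20.4 and 20.4 at 24 h, 16.2 and 18.6 at 48 h, then 18.8 and 17.3 at 72 h. It reached its lower level by 48 h (-0.42, SE 0.079, adjusted p = 0.00519) and was at -0.37 at 72 h (adjusted p = 0.00339). CHAF1B, another CAF-1 subunit, stood at 9.39 and 9.66 at 0 h, 9.25 and 8.13 at 24 h, 8.07 and 8.59 at 48 h, then 8.62 and 6.85 at 72 h, and was not called (-0.28 at 72 h, SE 0.110, adjusted p = 0.0593).

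The 4 fork and repair genes had the lowest median change of any role at 72 h, -0.67, after -0.28 at 24 h and -0.33 at 48 h, and 3 of them were called at 48 h and 3 at 72 h. EXO1, a nuclease of mismatch repair and end resection, stood at 18.1 and 17.9 scaled TPM at 0 h, 13.1 and 15.9 at 24 h, 14.9 and 13.7 at 48 h, then 10.2 and 9.16 at 72 h (-0.83, SE 0.098, adjusted p = 0.0001). BRCA1, which works in homologous recombination and fork protection, stood at 13.6 and 15.7 at 0 h, 11.8 and 12 at 24 h, 11.1 and 9.78 at 48 h, then 8.36 and 9.24 at 72 h (-0.67, SE 0.096, adjusted p = 0.000334). In both genes every siRNA library lay below both controls. TIPIN, a part of the fork protection complex, had a change of -0.67 at 72 h (SE 0.124, adjusted p = 0.00154).

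CLSPN, the adaptor that passes the stalled-fork signal to the kinase CHK1, stood at 13.7 and 13.8 scaled TPM at 0 h, 11 and 10.8 at 24 h, 11.6 and 10.1 at 48 h, then 11.9 and 12 at 72 h. All siRNA libraries lay below both controls. The change was called at 48 h (-0.32, SE 0.081, adjusted p = 0.0208, and 0.137 without the second 48 h library) and not at 72 h (-0.19, adjusted p = 0.0775).

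In time, 20 genes were called lower at both 48 and 72 h, 4 at 48 h and not at 72 h (MCM3, GINS4, LIG1 and CLSPN), and 16 at 72 h and not at 48 h. A further 7 were not called against 0 h at any time: ORC1, MCM4, MCM10, POLE2, POLD3, RPA2 and CHAF1B. A call at one time and not at another does not show that the times differ, so the times were also tested against each other. From 24 to 48 h, 2 genes were called lower and none higher, against 6.22% of all genes lower and 7.74% higher. At an unadjusted p under 0.05, 1 gene was higher. The 2 were POLE (-0.42, adjusted p = 0.00355) and POLD2 (-0.21), and the call of POLD2 was lost without either 24 h library or the second 48 h library.

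From 48 to 72 h, 16 genes were called lower (34.0%) and 3 higher, against 19.0% of all genes lower and 20.9% higher. The genes with the largest fall in this step were TK1 (-0.64, adjusted p = 6.79e-05), EXO1 (-0.52, adjusted p = 0.00296), PCNA (-0.51, adjusted p = 0.000121), RPA3 (-0.48, adjusted p = 0.000979) and CDC45 (-0.43, adjusted p = 0.00229). All 16 were also called on the TPM as deposited, but there the median of all genes was -0.17, which favours calls of lower. On the scaled TPM, 10 held whichever library was left out. The other 6 were ORC6, GINS3, RFC2, RFC3, RFC5 and RRM1. Of the 16, 6 had not been called at 48 h against 0 h: GINS3, PRIM1, PCNA, FEN1, RPA3 and DUT.

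The 3 genes that rose from 48 to 72 h were POLE2 (0.43, SE 0.099, adjusted p = 0.00826), POLD3 (0.34, SE 0.095, adjusted p = 0.0196) and LIG1 (0.27, SE 0.080, adjusted p = 0.0224). On the TPM as deposited none of these was called, with changes of 0.24, 0.13 and 0.06. The median of all genes was -0.17 there, and 590 of all genes were called higher, against 2489 on the scaled TPM. The call of POLE2 held whichever library was left out. That of POLD3 was lost without the first 48 h or the first 72 h library (changes of 0.24 and 0.27). That of LIG1 was lost without the second 48 h library (0.18) and without the first or the second 72 h library (0.26 and 0.27).

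From 24 to 72 h, 25 genes were called lower (53.2%) and 1 higher, against 24.4% of all genes lower and 25.7% higher. Of the 25, 20 held whichever library was left out. The 1 gene called higher was MCM4 (0.32, SE 0.10, adjusted p = 0.0231), and without the second 72 h library its change was 0.15 (adjusted p = 0.135). The call was also lost without the first (adjusted p = 0.0756) or the second 24 h library (adjusted p = 0.0885).

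Within a library, ratios of scaled TPM between paired genes do not depend on the scaling. The following pairs were chosen after their values were seen and are a description. MCM6 to MCM7 was 0.113 and 0.126 at 0 h and 0.0842 and 0.0901 at 72 h, while the 24 and 48 h libraries lay between 0.114 and 0.120. MCM4 to MCM6 was 3.65 and 2.97 at 0 h and 4.71 and 5.88 at 72 h. Both ratios contain MCM6. MCM2 to MCM7 was 0.219 and 0.218 at 0 h and 0.222 and 0.223 at 72 h. At the same times MCM3 to MCM7 was 0.258 and 0.280, then 0.288 and 0.284, MCM5 to MCM7 was 0.158 and 0.169, then 0.170 and 0.167, and MCM4 to MCM7 was 0.414 and 0.374, then 0.397 and 0.530. Without MCM6 the 72 h ratios thus lay within or near the 0 h range, except for MCM4 in the second 72 h library. POLE2 to POLE was 0.138 and 0.164 at 0 h, 0.165 and 0.189 at 24 h, 0.182 and 0.193 at 48 h, then 0.215 and 0.261 at 72 h. RPA3 to RPA2 was 1.61 and 1.55 at 0 h and 1.21 and 1.05 at 72 h. TK1 to RRM2 was 0.554 and 0.587 at 0 h, 0.676 and 0.596 at 24 h, and 0.355 in both 72 h libraries. In each of the 5 pairs plotted the 72 h libraries lay outside the range of the 0 h libraries.

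**Figure D4:**
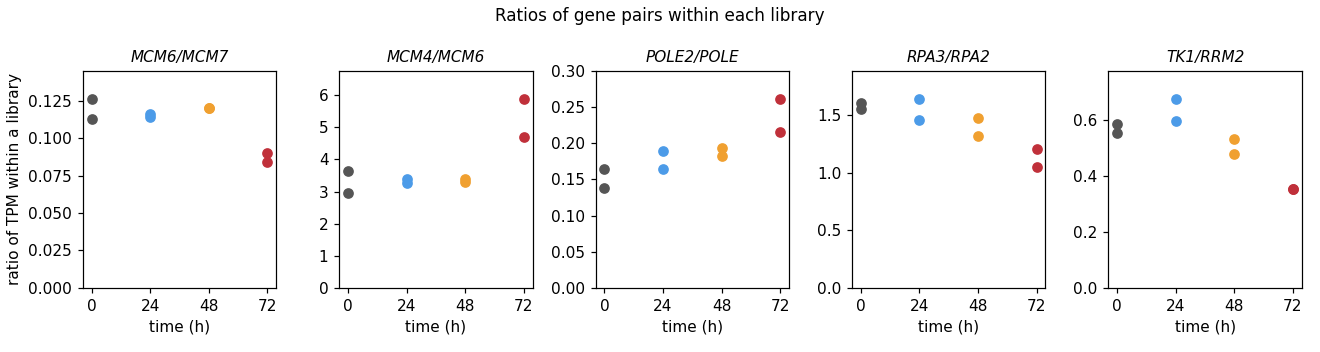
Ratio of TPM between the genes of 5 pairs in each library (points, coloured by group) against time in hours, with control siRNA at 0 h and TCF7L2 siRNA later, each axis starting at 0. MCM6 to MCM7 stays between 0.113 and 0.126 until 48 h and is 0.0842 and 0.0901 at 72 h, and MCM4 to MCM6 reaches 4.71 and 5.88.

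By level, the genes were spread widely at 0 h. After MCM7 came POLD2 at 144 scaled TPM, PCNA at 142 and MCM4 at 89.3, and the lowest were GINS3 at 5.85 and ORC1 at 5.30. Of the 47, 41 had a mean of 10 or more, and the median was 27.1 against 12.4 over all genes tested.

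The 72 h changes were also set beside the E2F-type motif in the 41 genes with a promoter window. Of 22 genes with the motif 18 were called lower at 72 h, with a median change of -0.47, and of 19 without it 16 were called, with a median of -0.39. The difference was not tested. Genes without a match included TK1, CDC45 and RRM2, whose CCAAT boxes are shown above.

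Of another 47 genes of replication outside this set, none was called at 24 h (8 lower and 1 higher at an unadjusted p under 0.05, limma), 20 were called lower at 48 h (42.6%) and 27 at 72 h (57.4%), and 1 was higher at 72 h. Over all genes 11.2% and 25.5% were lower. The gene called higher was TOP1, the topoisomerase that relaxes DNA ahead of the fork (0.36, adjusted p = 0.0130). The median changes were -0.07, -0.17 and -0.32. USP1, which removes ubiquitin from PCNA, fell by 1.09 on the log2 scale at 72 h (adjusted p = 1.82e-06), from 35.7 ± 1.42 to 16.2 ± 0.163 scaled TPM (SD, n = 2). DCTPP1, which clears damaged dCTP, had a change of -0.95 (adjusted p = 1.03e-05), POLE4, a small subunit of polymerase epsilon, one of -0.79 (adjusted p = 3.47e-05), and RNASEH2A, which removes RNA from DNA, one of -0.47 (adjusted p = 5.94e-05).

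Of 35 genes of G2 and mitosis, 4 were called lower (11.4%) and 1 higher at 48 h, where 11.2% of all genes were lower. At 72 h 13 were lower (37.1%) and 4 higher (11.4%), against 25.5% and 26.5% of all genes. The median changes of the 35 genes were 0.14 at 24 h, -0.08 at 48 h and -0.10 at 72 h. At 24 h 1 was called, CCNB1, the mitotic cyclin (0.38, higher). That is 2.86% of the 35, against 0.614% of all genes higher. At an unadjusted p under 0.05 (limma), 13 of the 35 were higher and 0 lower at 24 h. Over all 11894 genes 1071 were higher and 891 lower at that threshold. MAD2L1, a spindle checkpoint protein, had a change of -1.15 at 72 h (adjusted p = 9.86e-06), BIRC5, a subunit of the chromosomal passenger complex, one of -0.59 (adjusted p = 9.19e-05) and TOP2A, which untangles chromosomes, one of -0.49 (adjusted p = 0.000123). ANLN, which works in cytokinesis, was higher, with a change of 0.51 (adjusted p = 4.49e-05). Whether the replication genes changed more than these was not tested.

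Among 28 regulators of the G1 to S step, 5 were called lower and none higher at 24 h, 8 lower and 2 higher at 48 h, and 12 lower (42.9%) and 3 higher (10.7%) at 72 h, with medians of -0.20, -0.11 and -0.16. The 5 at 24 h were CCND2 (-0.31), CCNE1 (-0.56), CDK6 (-0.45), E2F1 (-0.35) and CDKN1A (-0.72). They made 17.9% of the regulators, against 0.429% of all genes lower and 0.614% higher at 24 h. The 72 h comparison called 25.5% of all genes tested lower and 26.5% higher, so calls of higher were a smaller share among the regulators. For the 48 h comparison, the regulators had 28.6% lower and 7.14% higher, beside 11.2% lower and 12.2% higher over all genes. Whether the regulators differed from all genes was not tested. At 72 h CCND1, the cyclin D1 gene and a textbook Wnt target, had a change of -0.69 (adjusted p = 1.24e-05), CCND2 one of -0.46 (adjusted p = 1.46e-05), and CDK4, the kinase partner of D cyclins, one of -0.67 (adjusted p = 2.44e-05). The CDK inhibitor gene CDKN2A was higher at 72 h (1.10, adjusted p = 1.37e-05), as were the inhibitor genes CDKN2B (0.75) and CDKN1B (0.30). Another, CDKN2D, was lower (-0.68, adjusted p = 0.000393), and CDKN1A, CDKN1C and CDKN2C were not called at 72 h (0.11, -0.26 and 0.28).

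Of the 47 replication genes, 24 have an exon that overlaps an exon of another gene in GENCODE 29, 18 of them with a gene on the opposite strand. Examples are MCM7 with AP4M1, FEN1 with TMEM258, CHAF1A with UBXN6 and RPA3 with UMAD1. Whether the authors' counting used strand is not given, so reads of such partners cannot be told apart.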

How the data were processed

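RNA-seq of 8 SW480 libraries was analysed. The authors deposited 1 table of TPM per gene symbol, and per the submitters' processing notes they used FastQC, Trimmomatic, STAR, Picard, SAMtools and RSEM with genome build hg19. No tool version, gene annotation or strand setting was given in the sources used here. Since TPM holds no read numbers, library depth is unknown and levels carry no counting error. Per the labels' protocols, ribosomal RNA was removed and cDNA was made with random primers. The protocol speaks of 3 treated replicates, and 2 libraries per group are listed.

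Each deposited TPM was divided by the library's median ratio to the mean log profile over genes at 1 or more in all 8 libraries. Genes that reached a deposited TPM of 1 in at least 2 libraries entered the fit (11894 of 18656). One limma model (version 3.58.1, R 4.3.3) was fitted to log2(scaled TPM + 1) over all 8 libraries and 4 groups, with a mean-variance trend and 4 residual degrees of freedom. Adjusted p-values are limma's, two-sided, by Benjamini-Hochberg over all genes kept, at 0.05. The pseudocount of 1 makes fold changes of low genes too small. The scaled fit was made the main one because earlier results of these data had shown library-wide shifts in the TPM as deposited.

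The members and lists were chosen with earlier results of these data known. In each of 8 roles, values in every library are given for the 2 genes with the smallest p at 72 h, the 1 with the smallest p at 24 h and the 1 with the smallest change at 72 h. Members called higher and up to 4 genes of each other list by p at 72 h are also named. GINS4, POLD3, TOP1, CCNB1, CDX2, VIL1, CDH17, CDH1, the further G1 to S regulators and the ratios were chosen after their values were seen. Alternatives were the TPM as deposited, other scalings, pseudocounts, filters and thresholds, other variance models, a replicate block and leaving out each library. The limma step was tested on simulated data. Replication-dependent histone genes were not analysed here.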

Additional observations from a re-analysis of the deposited data

Results flagged for a closer look

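The change of some genes differed between times of TCF7L2 siRNA when the times were tested against each other in limma. These were 2 of the 47 genes between 24 and 48 h, 19 between 48 and 72 h, and 26 between 24 and 72 h. Of the 47, 4.26% were called lower and none higher between 24 and 48 h. Between 48 and 72 h 34.0% were lower and 6.38% higher, and between 24 and 72 h 53.2% and 2.13%. Of all genes tested, 6.22% were called lower and 7.74% higher between 24 and 48 h. The shares were 19.0% and 20.9% between 48 and 72 h, and 24.4% and 25.7% between 24 and 72 h. Of the replication genes called, 4 rose with time while most fell. POLE2 rose by 0.43 (log2 scale), POLD3 by 0.34 and LIG1 by 0.27 from 48 to 72 h, and MCM4 rose by 0.32 from 24 to 72 h. On the TPM as deposited none of these rises was called, but there the median of all genes was -0.17 from 48 to 72 h and -0.11 from 24 to 72 h. The call of POLE2 held whichever library was left out, and those of POLD3, LIG1 and MCM4 did not. The MCM4 rise lost its call without either 24 h library, without the second 72 h library, with no filter and with no mean-variance trend.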

How the results depend on the processing

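The 36 calls at 72 h against 0 h and the 26 calls between 24 and 72 h kept within 1.5 times their number under every alternative run, 30 to 36 and 21 to 29 with 1 library left out. The other counts did not. The 2 genes called at 24 h became 0 on the TPM as deposited, with no filter, with no mean-variance trend and at an adjusted p of 0.01, 4 with every library scaled to the same sum and 5 at an adjusted p of 0.1. With 1 library left out they ranged from 0 to 5. The 24 genes called at 48 h became 4 on the TPM as deposited and 8 at 0.01, and ranged from 8 to 28 with 1 library left out. On the TPM as deposited 0.252% of all genes were called lower at 24 h, 3.14% at 48 h and 31.2% at 72 h. The 2 genes called between 24 and 48 h became 0 on the TPM as deposited, 1 with no trend, 1 at 0.01 and 6 at 0.1, and ranged from 1 to 3 with 1 library left out. The 19 called between 48 and 72 h became 11 at 0.01 and ranged from 14 to 19 with 1 library left out. Apart from the thresholds and the left-out libraries, the cause was not tested. Same-numbered libraries did not deviate together (correlations from -0.085 to 0.106). Whether they were made or handled as pairs is not given in the labels. With a replicate block 1 gene was called at 24 h, 25 at 48 h and 35 at 72 h against 0 h, 2 between 24 and 48 h, 19 between 48 and 72 h and 25 between 24 and 72 h.

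Signs turned only for changes that were not called. At 24 h the changes on the TPM as deposited and with the same sum were -0.08 and -0.04 for POLA2, -0.08 and -0.04 for POLE2, -0.09 and -0.04 for POLD2 (also -0.04 with quantile normalization), -0.05 and -0.00 for RPA1, -0.05 and -0.01 for RPA2, and -0.08 and -0.03 for RPA3. PRIM1 was at 0.00 with quantile normalization. With 1 library left out the 24 h changes ranged from -0.27 to 0.01 for MCM10, -0.10 to 0.08 for GINS3, -0.05 to 0.07 for POLA2, -0.04 to 0.04 for PRIM1, -0.07 to 0.00 for PRIM2, -0.09 to 0.10 for POLE2, -0.01 to 0.03 for POLD2, -0.14 to 0.05 for POLD3, -0.04 to 0.13 for RPA1, -0.04 to 0.07 for RPA3 and -0.03 to 0.02 for DUT. At 48 h they ranged from -0.20 to 0.05 for CDC6 and -0.08 to 0.02 for RPA1, and RPA3 was at -0.05 with the same sum. At 72 h MCM4 was at -0.21 on the TPM as deposited, -0.02 with the same sum and -0.16 to 0.19 with 1 library left out. RPA2 was at -0.21, -0.02 and -0.02 to 0.04 in the same order, and POLE2 was at -0.07 and POLD3 at -0.04 on the TPM as deposited. The 2 libraries per group and the unknown depth limit what small changes could be called.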
